A study of Mus musculus with 6 samples.

Results

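The subject is a set of 9 genes used to recognise microglia, the resident macrophages of the brain, and their close relatives: P2ry12, Tmem119, Cx3cr1, Csf1r, Aif1, Siglech, Trem2, Tyrobp and Mrc1. They were read from 6 samples of mouse whole-brain RNA on Affymetrix Mouse Gene 2.0 ST arrays, 1 array per sample. Each of the 9 was represented by its probeset annotated with that 1 gene symbol (1 probeset per gene). All 9 were bright enough to be tested, out of 16635 tested genes and 22180 genes with a probeset of their own.

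Knockout mice, called KO, had the genotype Thy1Cre-ERT2-EYFPHuRf/f, so both alleles of Elavl1, the gene for the RNA-binding protein HuR, were floxed (3 arrays). Control mice, called WT as in the labels, had the genotype Thy1Cre-ERT2-EYFPHuRf/+ and carried 1 floxed allele (3 arrays). Both groups held mice of either sex, carried a tamoxifen-inducible Cre and a yellow fluorescent reporter driven by Thy1, a promoter active in neurons, received tamoxifen at 10 and 11 weeks of age, and were 91 days old when brains were taken. The controls are therefore not untreated and can lose 1 allele, and the Cre is directed to neurons, so microglia are not the cells in which Elavl1 was targeted. The comparison asks whether the RNA of microglial genes in whole brain differed when HuR could be deleted in neurons. No label ties a sample to a named animal, and p-values therefore cover the spread among these 6 samples only. In whole-brain RNA, fewer cells of a type and less RNA per cell cannot be told apart.

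Microglia enter the brain early in embryonic life and maintain themselves there. Their survival depends on the receptor encoded by Csf1r, whose ligands are Csf1 and Il34, and they sense neurons through receptors such as Cx3cr1, which binds the neuronal ligand Cx3cl1, and P2ry12, which binds ADP. The surface receptor Trem2 signals through the adaptor Tyrobp, also called DAP12. In mouse models of neurodegeneration, resting microglia lower genes such as P2ry12, Tmem119 and Cx3cr1 and raise a disease-associated set that includes Itgax, Cst7 and Clec7a, a switch that partly requires Trem2. Mrc1, the mannose receptor, departs from the others: in healthy brain it marks macrophages of the meninges and of the spaces around vessels more than microglia of the tissue itself. Aif1, which encodes the actin-bundling protein IBA1, and Csf1r and Tyrobp are shared by microglia and other macrophages.

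The members lie on different chromosomes, apart from Aif1 and Trem2 on chromosome 17 and Siglech and Tyrobp on chromosome 7. Upstream sequences for 6 of the 9 were found in the RefSeq table of build GRCm38.p6 (P2ry12, Cx3cr1, Aif1, Siglech, Trem2 and Mrc1). The 250 bases before the start are shown for P2ry12 and Mrc1, the members with the lowest and the highest fold change, and for Trem2. Capitals mark the letters GAGGAA or their reverse complement, a purine-rich core bound by PU.1 (encoded by Spi1), the transcription factor that specifies the macrophage lineage.
P2ry12 (chr3:59262986-59263235, minus strand): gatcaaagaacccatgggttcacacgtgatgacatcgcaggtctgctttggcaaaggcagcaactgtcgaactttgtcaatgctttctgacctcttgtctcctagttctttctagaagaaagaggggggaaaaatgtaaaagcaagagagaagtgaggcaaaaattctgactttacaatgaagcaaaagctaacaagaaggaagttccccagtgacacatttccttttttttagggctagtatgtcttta
Trem2 (chr17:48346151-48346400, plus strand): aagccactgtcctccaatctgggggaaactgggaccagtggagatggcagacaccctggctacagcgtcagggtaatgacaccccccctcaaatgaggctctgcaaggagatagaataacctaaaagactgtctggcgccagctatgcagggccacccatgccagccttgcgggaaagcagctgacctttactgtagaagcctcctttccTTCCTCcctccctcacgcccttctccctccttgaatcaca
Mrc1 (chr2:14229164-14229413, plus strand): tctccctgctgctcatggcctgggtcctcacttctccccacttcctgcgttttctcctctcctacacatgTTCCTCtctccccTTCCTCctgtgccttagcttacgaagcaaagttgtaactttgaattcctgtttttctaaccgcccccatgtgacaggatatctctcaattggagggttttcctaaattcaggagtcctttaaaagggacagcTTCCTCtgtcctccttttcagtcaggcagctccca

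The letters GAGGAA occurred on either strand in 3 of the 6 upstream windows, against 23.3% of 32851 RefSeq windows of the same length. Mrc1 held 3 such matches, whose first bases lie 180, 167 and 35 bases before the start, Trem2 held 1 at 40 bases and Aif1 held 1 at 7 bases. The longer form GAGGAAGT, which contains the shorter one, was found in none of the 6 windows and in 2.44% of all windows. A match describes letters only, and a window without one says nothing about the factor.

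No microglial gene passed the test of KO against WT. With limma and Benjamini-Hochberg adjustment over all 16635 genes, 0 of the 9 members passed an adjusted p of 0.05, where 0% of all genes passed. Without adjustment, 282 genes, or 1.7%, had a p under 0.05, and none of the 9 was among them. The KO and WT arrays overlapped for every one of the 9, while they did not overlap for 5.7% of all genes. The 9 log2 fold changes ran from -0.21 for P2ry12 to 0.40 for Mrc1, with 5 above 0 and 4 below, and their median was 0.015, against 0.013 over all genes tested. The summed intensity of the 9 genes was 685 to 943 on KO arrays and 702 to 952 on WT arrays.

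**Figure D1:**
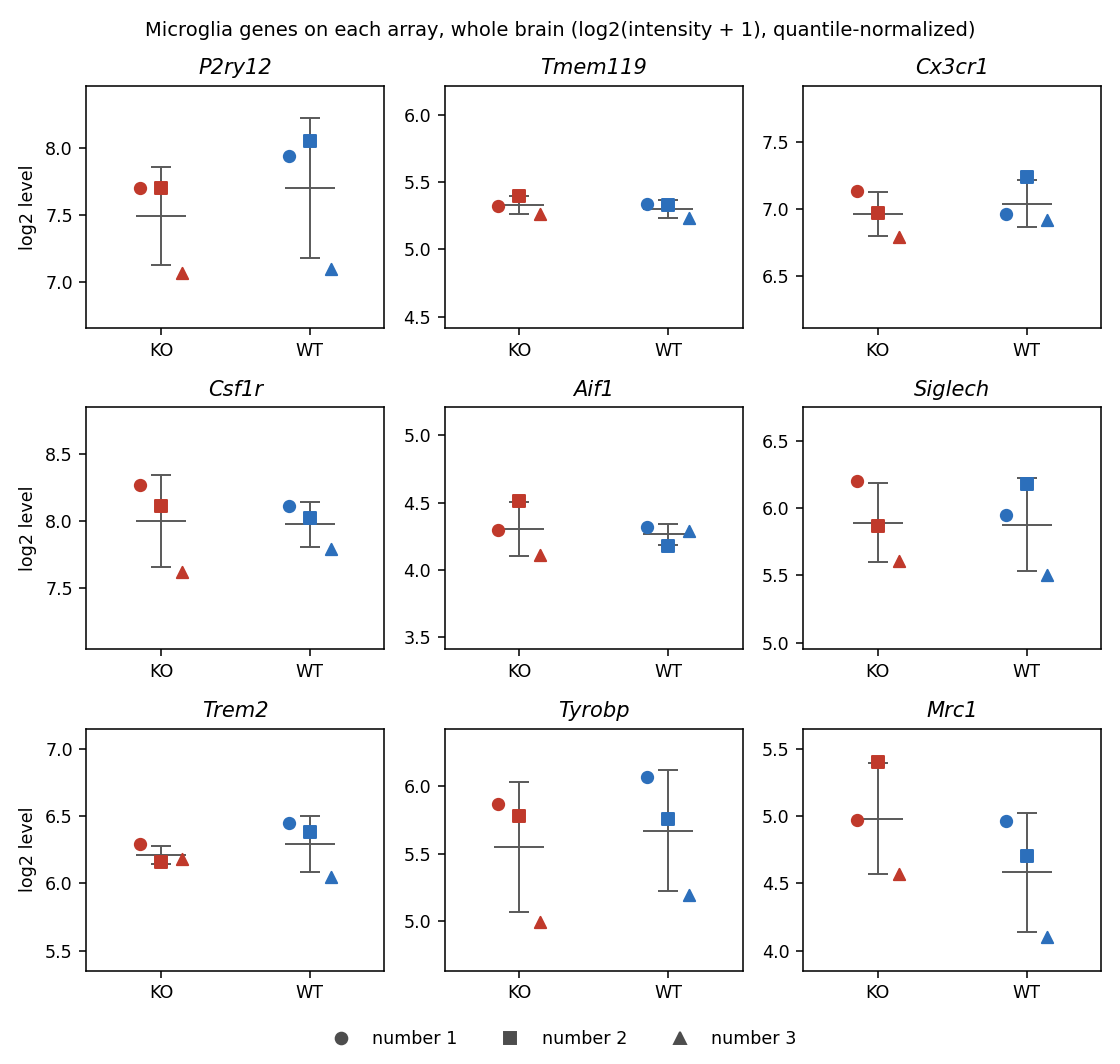
Log2 level, log2(intensity + 1) after quantile normalization, of the 9 genes on each array; the marker shape gives the replicate number, the bar and whiskers the mean and SD of 3 arrays, and every panel spans the same number of log2 units. KO and WT overlap in every panel, and the array numbered 3 is the lowest of both groups for 7 of the 9 genes.

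The arrays differ in a way that cuts across genotype and bears on every value below. The arrays numbered 3 had a log2 Xist level of 7.68 in KO and 7.69 in WT, and the other 4 arrays had 2.52 to 2.79. Levels of the Y-linked genes Uty, Kdm5d and Eif2s3y were low on the arrays numbered 3 and high on the other 4, so each group holds 1 array that reads as female and 2 that read as male. Elavl1 itself, the targeted gene, was at 8.22, 8.17 and 8.27 log2 units on KO arrays and at 8.27, 8.01 and 8.53 on WT arrays, which overlap. Among markers of the other brain cells, the synaptic gene Snap25 had an intensity of 3090 to 5200 on KO arrays and 2960 to 5360 on WT arrays. The astrocyte glutamate transporter Slc1a2 had 510 to 559 on KO arrays and 517 to 528 on WT arrays. The myelin gene Mbp had 283 to 301 on KO arrays and 246 to 311 on WT arrays. These single genes do not stand for their lists. In KO over WT, 6 of 8 neuron, 7 of 7 astrocyte and 1 of 6 oligodendrocyte markers lay above 0, the 1 being Mbp. Over all genes 54.8% lay above 0, and 0 of these markers passed the adjusted threshold.

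The sensing receptors come first. P2ry12, the ADP receptor that steers microglial processes toward injury, had intensities of 206, 208 and 138 on KO arrays 1, 2 and 3, against 246, 250 and 138 on WT arrays 1, 2 and 3. The 2 WT arrays numbered 1 and 2 are the highest of the 6, and both arrays numbered 3 are the lowest and equal to each other. The log2 level was 7.49 ± 0.363 in KO and 7.70 ± 0.519 in WT (SD, n = 3 each), which gave a log2 fold change of -0.21 ± 0.28 (SE), smaller in size than either SD (limma adjusted p = 0.9998). Its 95% confidence interval spans 0.548-fold to 1.37-fold. Both SDs include the low arrays numbered 3. With the replicate number as a block, the SE was 0.098 and the 95% interval of the log2 fold change ran from -0.45 to 0.03. The unadjusted p was then 0.0784 and the adjusted p 0.984 (limma). Without both arrays numbered 3, which left 2 arrays per group, the unadjusted p was 0.0346 and the adjusted p 0.932 (limma). In that fit 854 of the 16635 genes tested had an unadjusted p under 0.05. Between arrays of the same number, the log2 difference was -0.24, -0.35 and -0.03 for numbers 1, 2 and 3. All 3 lie below 0, as they do for 10.7% of all genes. No label pairs the arrays, and the matching of numbers 1 and 2 is arbitrary. The same limit holds for the block fits and for the pair differences of the other genes. Without the WT array numbered 3 the log2 fold change was -0.506, without the KO array numbered 3 it was 0.002, without both it was -0.296, and without WT array 1 or 2 it was -0.087 or -0.031.

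Cx3cr1, the receptor for the neuronal chemokine Cx3cl1, had intensities of 138, 126 and 114 on KO arrays and 125, 141 and 122 on WT arrays. Its log2 fold change was -0.08 ± 0.14 (SE), and the pairs of equal number pointed both ways. Its ligand Cx3cl1 was at 0.004 ± 0.24 on the same scale. Siglech, a sialic acid-binding lectin of mouse microglia, had intensities of 72.1, 58.0 and 49.0 on KO arrays and 61.1, 68.2 and 44.4 on WT arrays. The lowest array of each group was again number 3, and the log2 fold change was 0.01 ± 0.21 (SE).

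Tmem119, a membrane protein that separates microglia from most other macrophages, was the steadiest of the 9. Its intensities were 38.8, 41.2 and 37.7 on KO arrays and 39.8, 38.8 and 36.6 on WT arrays, a range of 0.169 log2 units over all 6 arrays. The log2 level was 5.33 ± 0.0671 in KO and 5.30 ± 0.0646 in WT (SD, n = 3 each). The log2 fold change was 0.03 ± 0.10 (SE), and its 95% interval, 0.864-fold to 1.20-fold, was the narrowest among the members.

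Csf1r, the growth factor receptor that microglia need to survive, had intensities of 306, 276 and 203 on KO arrays and 278, 244 and 224 on WT arrays. KO arrays 1 and 3 are the highest and the lowest of all 6, so the WT values lie within the KO range. The log2 fold change was 0.03 ± 0.19 (SE), with an interval of 0.754-fold to 1.37-fold. Its ligands Csf1 and Il34 had log2 fold changes of 0.02 ± 0.13 and -0.08 ± 0.13 (SE).

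Trem2, a lipid-sensing receptor of microglia, had intensities of 76.8, 70.6 and 73.7 on KO arrays and 86.7, 77.5 and 66.1 on WT arrays. The KO values lie between the WT extremes, and the log2 fold change was -0.08 ± 0.13 (SE). Its adaptor Tyrobp, which carries the signal of Trem2 into the cell, had intensities of 56.8, 54.5 and 30.9 on KO arrays and 66.6, 51.5 and 35.5 on WT arrays. Tyrobp varied widely within each group, by SDs of 0.483 log2 units in KO and 0.449 in WT, and its log2 fold change of -0.12 ± 0.29 (SE) is smaller than both. The kinase Syk, which acts downstream of this adaptor, was at -0.004 ± 0.10 (log2 fold change, SE).

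Aif1, shared with other macrophages, had intensities of 18.7, 21.7 and 15.9 on KO arrays and 18.7, 18.1 and 18.5 on WT arrays, close to the array medians of 13.4 to 14.6 over all probesets. The KO arrays spread around the WT arrays, which lie close together, and the log2 fold change was 0.04 ± 0.13 (SE).

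Mrc1 had the largest difference among the 9. Its intensities were 30.4, 41.2 and 22.5 on KO arrays 1, 2 and 3, against 29.8, 25.7 and 16.1 on WT arrays 1, 2 and 3. KO array 2 is the highest and WT array 3 the lowest of the 6, while KO array 1 and WT array 1 were nearly equal and KO array 3 lay below 2 of the WT arrays. The log2 level was 4.98 ± 0.413 in KO and 4.58 ± 0.442 in WT (SD, n = 3 each). The log2 fold change was 0.40 ± 0.27 (SE), smaller than the SD of each group, and the interval ran from 0.848-fold to 2.04-fold (limma adjusted p = 0.9998; two-sided exact permutation p = 0.4, where 3 against 3 arrays allow none below 0.1). Between arrays of equal number the log2 difference was 0.02, 0.70 and 0.47, above 0 in all 3, as for 14.2% of all genes. The matching of numbers 1 and 2 is arbitrary, so these differences describe 1 possible matching. The value was 0.189 without KO array 2, 0.153 without WT array 3 and 0.602 without KO array 3. With the replicate number as a block, the 95% interval of the log2 fold change was 0.05 to 0.75, with an unadjusted p of 0.0316 and an adjusted p of 0.984 (limma), where 4.85% of all genes had an unadjusted p under 0.05.

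**Figure D2:**
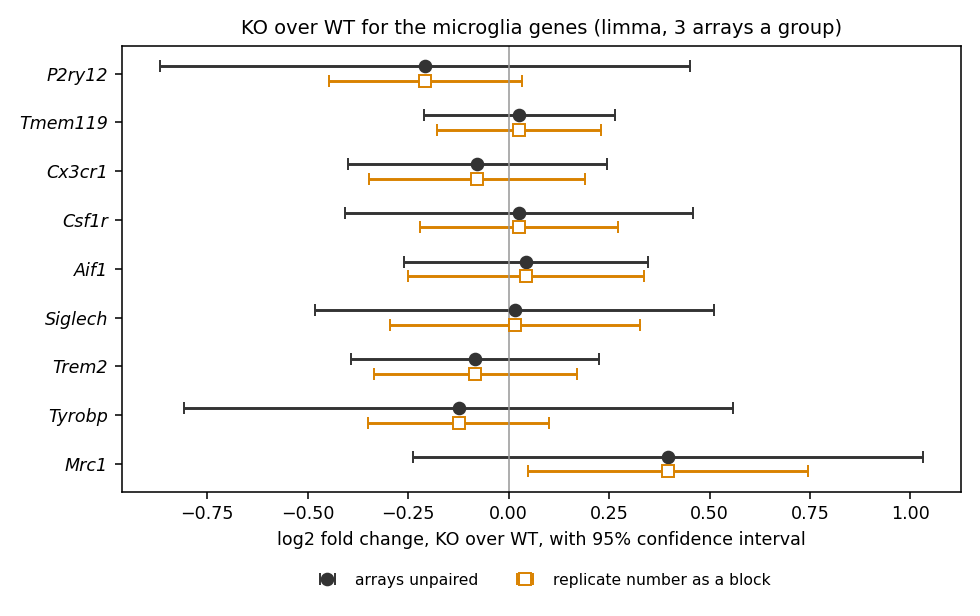
Log2 fold change of KO over WT with its 95% confidence interval for the 9 genes, from limma with the 6 arrays unpaired (black) and with the replicate number as a block (orange). Every unpaired interval holds 0, and with the block the interval of Mrc1, 0.05 to 0.75, lies above 0 although its adjusted p is 0.984. The block rests on no label, and its matching of numbers 1 and 2 is arbitrary.

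The differences of KO over WT were also compared between the arrays numbered 3 and the others. Trem2 was lower in KO in the pairs numbered 1 and 2 (log2 differences of -0.16 and -0.22) and higher in the pair numbered 3 (0.13). Csf1r showed the opposite order, at 0.16, 0.09 and -0.17. The interaction term passed for none of the 9 members (limma adjusted p = 0.9995 for each) and for 0 of all genes, or 0%, with 437 genes, or 2.63%, at an unadjusted p under 0.05. Only 1 array per group is numbered 3, so its spread is taken from the other arrays.

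Levels of most members were lowest on the arrays numbered 3. For 7 of the 9 genes (P2ry12, Tmem119, Cx3cr1, Csf1r, Siglech, Tyrobp and Mrc1), both arrays numbered 3 lay below all 4 other arrays, a placing that 20.6% of all genes had. Trem2 and Aif1 were the exceptions. In log2 units, Tyrobp on the array numbered 3 was lower than the mean of arrays 1 and 2 by a difference of -0.83 in KO and -0.73 in WT. The same difference was -0.63 in KO and -0.89 in WT for P2ry12, and -0.62 in KO and -0.73 in WT for Mrc1. Csf1r differed by -0.57 in KO and -0.28 in WT, Siglech by -0.42 in KO and -0.56 in WT, and Tmem119 by -0.10 in KO and -0.11 in WT. These are descriptions of 1 array per group, given without a test. The Xist level, and with it the sex read from it, cannot be told apart from any other difference of the arrays numbered 3.

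Markers of several other cell types also differed between the arrays numbered 3 and the rest. For the 21 tested further microglia genes, a list that includes the complement genes C1qa, C1qb and C1qc, both arrays numbered 3 lay lowest for 14 and highest for 0, and the median log2 difference of number 3 from numbers 1 and 2 was -0.40 in KO and -0.34 in WT. Meningeal fibroblast markers lay lowest there for 6 of 7 genes, with medians of -0.71 in KO and -0.53 in WT. Neuron markers lay highest on both arrays numbered 3 for 7 of 8 genes (medians of 0.39 in KO and 0.52 in WT). Endothelial and pericyte markers did so for 5 of 7 (0.74 in KO and 0.76 in WT), and the placing above all other arrays held for 23.4% of all genes. The summed intensities of the endothelial and pericyte markers ran from 490 to 684 on KO arrays and from 432 to 670 on WT arrays. Astrocyte markers lay lowest on both arrays numbered 3 for 4 of 7 genes (medians of -0.14 in KO and -0.21 in WT). Oligodendrocyte markers lay lowest there for 0 of 6 and highest for 1, with medians of 0.03 in KO and 0.09 in WT. The part of these markers in the levels of the 9 genes was not tested.

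**Figure D3:**
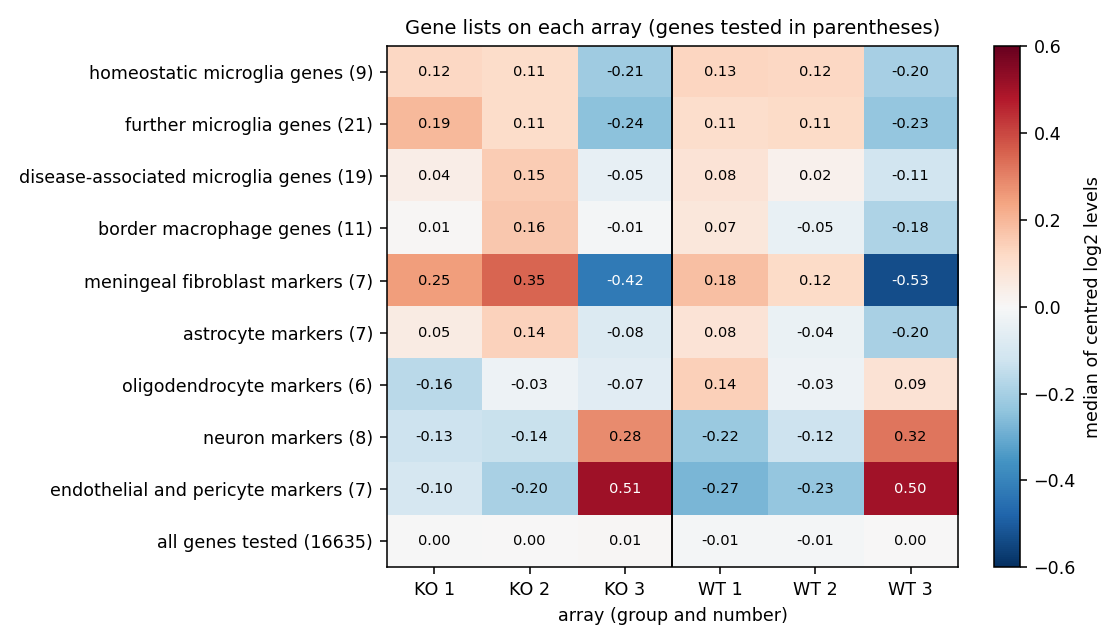
Median over each gene list of the log2 level on each array, centred per gene on its mean over the 6 arrays, with KO arrays left of WT arrays. The 9 microglia genes stand at -0.21 on KO array 3 and -0.20 on WT array 3 and between 0.11 and 0.13 on the other 4, while neuron markers and endothelial and pericyte markers are highest on the arrays numbered 3.

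Further genes of the same cells gave no call either. Of the 21 tested further microglia genes, 14 lay above 0 and 7 below in KO over WT, with a median of 0.06 and 0 past the adjusted threshold. The smallest unadjusted p belonged to Ptprc, the leukocyte surface phosphatase CD45. It had intensities of 19.0, 21.6 and 14.5 on KO arrays and 15.5, 16.6 and 13 on WT arrays, a log2 fold change of 0.30 ± 0.16 (SE) with overlapping groups. Fcrls, an Fc receptor-like gene of mouse microglia, had intensities of 106, 92.5 and 66.8 on KO arrays and 127, 107 and 73.9 on WT arrays, and a log2 fold change of -0.23 ± 0.25 (SE). Ltc4s, a leukotriene synthase, was at 0.20 ± 0.21 and Spi1 at 0.13 ± 0.15 (log2 fold change, SE).

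Disease-associated microglia genes (19 tested) had 15 values above 0 and 4 below, a median log2 fold change of 0.03 and no call. Over all genes 54.8% lay above 0, and the split was not tested. Itgax, which encodes the integrin CD11c, was at -0.0006 ± 0.13, the glycoprotein Gpnmb at 0.27 ± 0.20, the chemokine Ccl6 at 0.19 ± 0.14 and B2m, the light chain of class I molecules, at 0.20 ± 0.15 (log2 fold change, SE). All 4 overlapped between the groups. Itgax was dim, at intensities of 7.77, 9.8 and 8.48 on KO arrays and 9.59, 7.85 and 9.19 on WT arrays. These lie under the array medians of 13.4 to 14.6, so its value says little about a change. Clec7a had 11.5, 12.3 and 9.89 on KO arrays and 11.6, 11 and 7.69 on WT arrays. Cst7 had 18.5, 13.1 and 17.4 on KO arrays and 17.2, 15 and 15.6 on WT arrays. Spp1 had no probeset with that 1 symbol.

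Border macrophage genes, the company in which Mrc1 is usually found, numbered 11 tested, of which 10 lay above 0 and 1 below. Over all genes 54.8% lay above 0, and the split was not tested. Some of the list were dim: Pf4 had intensities of 13.6, 11.4 and 7.05 on KO arrays and 7.77, 11.9 and 7.85 on WT arrays. The median log2 fold change of the 11 genes was 0.08, and none passed. The scavenger receptor Cd163 was at -0.01 ± 0.10, the chemokine Pf4 at 0.23 ± 0.23, the carbonyl reductase Cbr2 at 0.15 ± 0.14 and the transcription factor Maf at 0.15 ± 0.13 (log2 fold change, SE). Without both arrays numbered 3 the split was 8 above and 3 below 0. With 10 of these genes tested, it was 9 above and 1 below with arrays centred on their median, and 6 above and 4 below with values as deposited. Meningeal fibroblast markers, from the same tissue layers, had 4 of 7 values above 0 and a median of 0.10. Col1a1 was at 0.36 ± 0.32, Col3a1 at 0.25 ± 0.11, Lum at 0.20 ± 0.26 and Col1a2 at 0.10 ± 0.27 (log2 fold change, SE), and 3 of the 7 lay below 0. Col3a1 was the 1 of these 7 genes whose groups did not overlap, where 5.7% of all genes did not.

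Ligands and signalling partners (14 tested) had 8 values above 0, 6 below and a median log2 fold change of 0.007. Entpd1, which degrades ATP and ADP outside the cell, was at -0.20 ± 0.13 and the lipid phosphatase Inpp5d at 0.11 ± 0.11 (log2 fold change, SE). Hcst, a signalling adaptor related to Tyrobp, was the 1 gene of this list whose groups did not overlap, a count near the 5.7% of all genes, with intensities of 18.6, 21.4 and 17.5 on KO arrays and 17.1, 17.2 and 17.6 on WT arrays. The separation holds for the normalized log2 levels, 4.24 to 4.49 in KO and 4.11 to 4.22 in WT, and not for the deposited intensities.

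Blood leukocyte genes were mostly dim, and 4 of the 13 listed lay under the brightness limit. Among the 8 tested, 5 lay above 0 and none passed. The neutrophil gene S100a8 had intensities of 75.4, 25.3 and 6.89 on KO arrays and 22.0, 13.3 and 10.4 on WT arrays, so KO array 1 alone stood high and KO array 3 was the lowest of all. S100a9, its partner, had 18.7, 12.8 and 7.37 on KO arrays and 9.62, 9.62 and 7.36 on WT arrays. Ly6c2 of monocytes was at a log2 fold change of -0.09 ± 0.22 and Cd3d of T cells at -0.13 ± 0.13 (SE). Summed over the 8 genes, the intensity was 84.7 to 179 on KO arrays and 101 to 108 on WT arrays.

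Oligodendrocyte markers, a list for cells outside the macrophage family, held the 1 gene of all these lists with an unadjusted p under 0.05 in the unpaired fit (limma). Over all genes tested 1.7% had such a p, and 1 gene over all the lists does not exceed that share. Of 6 tested, 5 lay below 0, 1 lay above and 0 passed. KO arrays lay wholly below WT arrays for 3 (Opalin, Cldn11 and Mog), where 5.7% of all genes did not overlap in either direction. For Cldn11 and Mog this holds for the normalized log2 levels and not for the deposited intensities. KO array 2 had 621 for Cldn11 and 292 for Mog, against 612 and 288 on WT array 2. Opalin, a membrane protein of oligodendrocytes, had intensities of 121, 111 and 137 on KO arrays and 241, 149 and 161 on WT arrays. Its log2 fold change was -0.58 ± 0.18 (SE). The unadjusted p was 0.0132, and 0.00696 with the replicate block (limma adjusted p = 0.9998 and 0.984). Among the named genes, Ptprc (0.0193), Col3a1 (0.0313), Mrc1 (0.0316), S100a9 (0.0341) and Fcrls (0.0346) also had an unadjusted p under 0.05 with that block (limma). The adjusted p of each was 0.984, and 4.85% of all genes had an unadjusted p under 0.05 with the block.

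**Figure D4:**
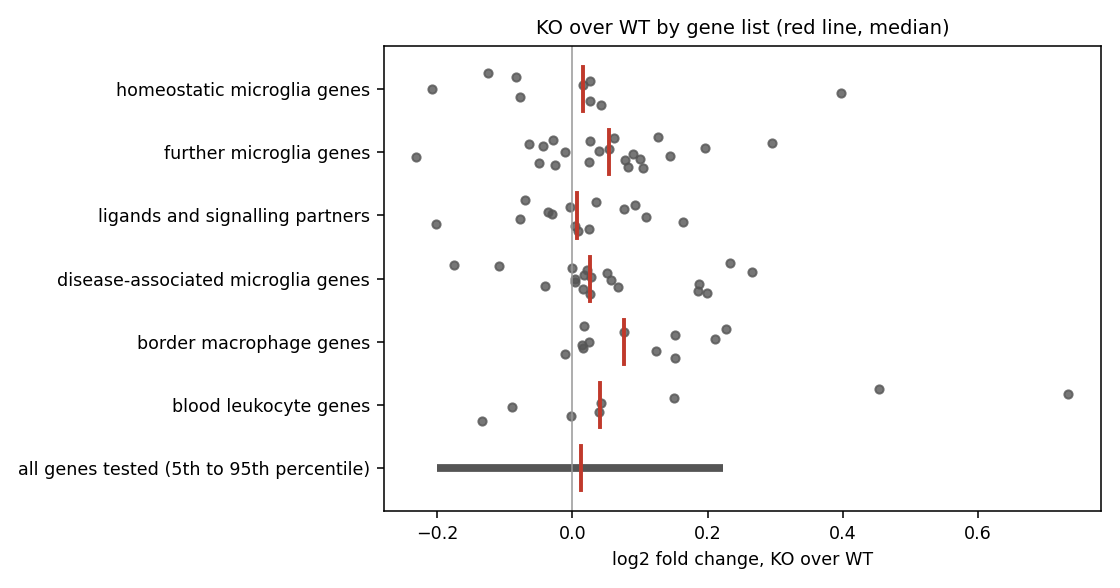
Log2 fold change of KO over WT for each tested gene (dot) of 6 lists, with the median of each list (red line) and, at the bottom, the range from the 5th to the 95th percentile of all genes tested, -0.20 to 0.22. List medians lie between 0.007 and 0.08, and the dots furthest to the right are S100a8 at 0.73, S100a9 at 0.45 and Mrc1 at 0.40.

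Genes whose profile over the 6 arrays was most like that of P2ry12 were sought among 12271 genes outside the set. Likeness was the root-mean-square difference between log2 levels standardised to mean 0 and SD 1, which is 0 for identical shapes. The closest were the tubulin cofactor Tbca (0.074), the respiratory chain subunit Cox7a2 (0.088), Cnih1 (0.089), Chmp2b (0.098) and Arhgap8 (0.102). Tbca, for example, had log2 levels of 7.72, 7.85 and 7.03 on KO arrays and 8.10, 8.26 and 7.09 on WT arrays, again lowest on the arrays numbered 3. Tyrobp was the closest member to P2ry12, at 0.376, and 758 tested genes were closer. For Mrc1 the closest genes were Bfsp2 (0.098), Cog6 (0.106), Birc2 (0.117), the astrocyte filament gene Gfap (0.123) and Srsf9 (0.137), and Tmem119 was the closest member, at 0.284. Over all genes tested, 20.6% had both arrays numbered 3 below the other 4, and the cause of the likeness was not tested.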

How the data were processed

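The authors deposited linear intensity values of 41340 probesets on each of 6 arrays. The method named for them, per the submitters' processing notes, is MAS5. How it was applied to this array type was not given, so the way probes were summarised is unclear. The version of MAS5, the background correction, the scaling, detection calls and scan batches were not given in the sources used here. Per the labels' protocols, 150 ng of total RNA was labelled.

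Values were taken as log2(intensity + 1) and quantile-normalized, since array medians differed by 0.12 log2 units. The platform annotation gave 23521 probesets 1 symbol, 1814 several and 16005 none. Each of 22180 genes was represented by its brightest probeset, and the dimmest 25% by mean level, 5545 genes, were not tested. KO and WT were compared with limma 3.58.1 in R 4.3.3 (two-sided, all 6 arrays, Benjamini-Hochberg at 0.05). The number of arrays limits the precision: the distance from the centre to the edge of the 95% interval around a log2 fold change was 0.33 at the median. A fold on the log2(intensity + 1) scale understates changes of dim genes. Chromosomes and promoter sequences came from RefSeq (GRCm38.p6). The script was tested on simulated data. All sample columns were used, and 0 pairs of arrays were identical. Figures used Python 3.11.15 and matplotlib 3.10.9.

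Whether equal replicate numbers pair the arrays was checked from the data: deviations from the group means had correlations of 0.31, 0.37 and 0.75 for numbers 1, 2 and 3, all above 0.1, so the number was used as a block in an alternative. KO 1 with WT 2 (0.37) and KO 2 with WT 1 (0.40) correlated as well, so the matching of numbers 1 and 2 is arbitrary; the pairing comes from this check and from no label. Members and gene lists were chosen with earlier results of these data known. All 9 members are named. Of most other lists, the first gene where tested and those with the smallest unadjusted p are named, up to 4 in all. This rule was not applied to the neuron, astrocyte, endothelial and pericyte, and housekeeping lists. Cx3cl1, Il34 and Syk were named as ligands or partners of members, and Clec7a, Cst7 and Spp1 as disease-associated genes. Uty, Kdm5d, Eif2s3y, Elavl1, Xist, Snap25, Slc1a2 and Mbp were named as checks. Lists of astrocyte, neuron, oligodendrocyte, endothelial and pericyte, and housekeeping genes had medians of 0.07, 0.01, -0.125, 0.03 and 0.04 (log2 fold change) and 0 calls each. Alternatives covered normalization, brightness filter, pseudocount, probeset rule, variance model, array weights, the block, Xist and left-out arrays.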

Additional observations from a re-analysis of the deposited data

How the results depend on the processing

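Across 17 alternatives, 0 genes and 0 of the 9 members passed the adjusted threshold in limma; the lowest adjusted p of a member was 0.932, and the number of genes at an unadjusted p under 0.05 ran from 88 (upper 50% of genes by level) to 854 (without both arrays numbered 3), against 282 as reported. With the replicate number as a block, 806 genes had an unadjusted p under 0.05 and no call changed. Aif1 and Mrc1 gave no value when genes under the 50th percentile were left out. Apart from single arrays left out, the sign of a member turned for Siglech alone, to -0.034 without both arrays numbered 3. Leaving out single arrays moved P2ry12 between -0.506 and 0.002, Tyrobp between -0.368 and 0.153, Mrc1 between 0.153 and 0.602, Csf1r between -0.112 and 0.216, Siglech between -0.173 and 0.167, Cx3cr1 between -0.159 and 0.023, Aif1 between -0.06 and 0.14, Tmem119 between -0.011 and 0.059 and Trem2 between -0.203 and -0.005. The members' median ran from -0.139 to 0.14 and the called genes and members stayed at 0. The cause of these sign changes was not tested. With arrays centred on their median, 68.6% of all genes lay above 0, against 54.8% as reported, and 20 of 21 further microglia genes did (this setting was applied to the gene lists after seeing the data). Without both arrays numbered 3, that list had 14 of 21 above 0, as reported. With a pseudocount of 16 the Mrc1 value was 0.255.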
